A study of Homo sapiens with 9 samples.

Results

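The 7 genes described here encode proteins of the RAS-RAF-MEK-ERK cascade: the GTPases HRAS and NRAS, the kinases ARAF and BRAF, the kinases MAP2K1 (MEK1) and MAP2K2 (MEK2), and the kinase MAPK3 (ERK1). They were chosen by name, and each was found in the deposited count table by its Ensembl identifier, 7 of 60664 genes in all. All 7 passed the filter on low counts, as did 17207 genes of the table. Each gene was followed in all 9 libraries and was compared between the cell lines and with the genes that lie next to it on its chromosome.

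The libraries were made from Huh-7 cells, a human hepatocellular carcinoma line, with 3 libraries for each of 3 lines. WT cells carried no deletion, 1-1 KO cells lacked the VTRNA1-1 gene and 1-2 KO cells lacked the VTRNA1-2 gene, in both cases after CRISPR/Cas9 editing, and all were untreated and grown in complete medium. VTRNA1-1 and VTRNA1-2 encode vault RNAs, short noncoding RNAs transcribed by RNA polymerase III. The WT and 1-1 KO cells came from another laboratory, whereas 1-2 KO was derived from the WT cells as a single cell clone, and with 1 line per knockout an effect of the deletion cannot be told apart from another difference between the lines. The study calls the libraries of a line biological replicates, from RNA extracted in triplicate, and neither it nor the labels say whether they came from separate cultures, so the p-values measure the spread between these libraries, which may be technical.

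RAS proteins are small GTPases at the plasma membrane that switch on when growth factor receptors recruit exchange factors. GTP-bound RAS recruits RAF kinases, which phosphorylate MEK, and MEK phosphorylates ERK, which then acts on cytoplasmic and nuclear substrates. The signal is carried mainly by GTP loading and phosphorylation, which mRNA levels do not show. In the liver the cascade is known for its part in hepatocyte proliferation and in hepatocellular carcinoma.

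The libraries held between 32384469 and 41782387 counts. VTRNA1-1 was at 1 count in WT replicate 1 and at 0 in the other libraries, and VTRNA1-2 was at 0 in all 9, so these mRNA libraries do not check the knockouts. All 9 hepatocyte and hepatoma markers were detected, with a summed level of 15010 to 15956 CPM (read counts scaled to a common library size) in WT, 31192 to 32134 in 1-1 KO and 21201 to 23228 in 1-2 KO. Of the markers of other cells, 5 of 6 fibroblast, 1 of 6 endothelial and 3 of 6 leukocyte genes passed the filter. Their summed levels were 186 to 196, 281 to 295 and 119 to 127 CPM for fibroblast genes, 7.45 to 8.14, 6.50 to 7.32 and 0.855 to 1.10 for endothelial genes, and 114.7 to 115.4, 102 to 107 and 21.5 to 22.4 for leukocyte genes, in WT, in 1-1 KO and in 1-2 KO. KDR was at 0 in every library and PTPRC did not exceed 1.12 CPM, while LUM and LYZ had the highest levels of their lists. These markers differed between the lines together with the genes below, and their part in the results was not tested.

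In 1-1 KO compared to WT, BRAF, MAP2K2 and NRAS were higher and HRAS, MAP2K1 and ARAF were lower, with changes of at most 1.43-fold. In 1-2 KO compared to WT, BRAF and MAP2K2 were higher and NRAS, MAP2K1 and ARAF were lower, with changes of at most 1.61-fold. MAPK3 was called in neither. These are levels of bulk RNA, in which fewer cells with an mRNA and less of it per cell cannot be told apart. Both knockouts were compared to the same 3 WT libraries.

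By edgeR's quasi-likelihood test, 6 of the 7 genes passed an adjusted p of 0.05 in 1-1 KO, 3 higher and 3 lower, in a comparison where 63.4% of all tested genes passed, 32.5% higher and 30.9% lower. In 1-2 KO 5 genes passed, 2 higher and 3 lower, where 54.4% of all genes passed, 28.2% higher and 26.2% lower. In 1-2 KO compared to 1-1 KO 5 genes passed, 3 higher and 2 lower, where 65.3% of all genes passed, 33.1% higher and 32.2% lower. The CPM values of the lines did not overlap for 6, 5 and 6 of the 7 genes in these comparisons, against 68.9%, 58.4% and 69.8% of all genes. With 7 genes, counts so near the background are no result about the cascade as a group. The median absolute log2 fold change of the 7 genes was 0.38, 0.21 and 0.20 in the 3 comparisons, beside 0.35, 0.27 and 0.37 over all tested genes. Their median log2 fold change was 0.06, -0.15 and 0.02, beside 0.01, 0.02 and 0.01 over all tested genes.

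HRAS (ENSG00000174775, chromosome 11, 532242 to 537321, minus strand, GRCh38) was at 11.8, 12.8 and 12.1 CPM in the 3 WT libraries (here and below in the order of their replicate numbers), at 8.27, 9.17 and 8.29 in 1-1 KO and at 11.2, 11.0 and 10.9 in 1-2 KO. All 1-1 KO libraries lay below all others, and the 1-2 KO libraries lay just below WT without overlap. HRAS was 1.43-fold lower in 1-1 KO than in WT (log2 fold change -0.51 ± 0.07 SE, edgeR adjusted p = 1.64e-05). In 1-2 KO its log2 fold change was -0.15 ± 0.07, which was not called by edgeR (adjusted p = 0.0793). Between the knockouts it was 1.29-fold higher in 1-2 KO (edgeR adjusted p = 0.000345).

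NRAS (ENSG00000213281, chromosome 1, 114704469 to 114716771, minus strand) was the most abundant of the 7. It was at 365, 382 and 364 CPM in WT, at 416, 419 and 417 in 1-1 KO and at 224, 240 and 227 in 1-2 KO. The 3 lines were separate, with 1-1 KO highest and 1-2 KO lowest. In 1-1 KO it was 1.13-fold higher (log2 fold change 0.17 ± 0.04, edgeR adjusted p = 0.000808), and in 1-2 KO 1.61-fold lower (-0.69 ± 0.04, edgeR adjusted p = 1.47e-09). The knockouts differed by 1.81-fold (-0.86 ± 0.04 for 1-2 KO compared to 1-1 KO, edgeR adjusted p = 8.2e-11), and NRAS thus moved in opposite directions from WT. It was the only one of the 7 genes called in opposite directions in the 2 knockouts.

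DENND2C, a tested protein-coding gene next to NRAS, is a regulator of RAB GTPases. It was higher in both knockouts, with log2 fold changes of 0.61 ± 0.18 in 1-1 KO and 0.95 ± 0.18 in 1-2 KO, both called by edgeR, the first not without 1-1 KO replicate 1 (0.43, edgeR adjusted p = 0.0593), at levels of only 1.00 ± 0.13, 1.54 ± 0.32 and 1.95 ± 0.15 CPM (SD, n = 3) in WT, in 1-1 KO and in 1-2 KO. The neighbours of HRAS were unlike each other. RNH1, which encodes a ribonuclease inhibitor, had log2 fold changes of -0.37 ± 0.05 in 1-1 KO, called by edgeR, and 0.01 ± 0.05 in 1-2 KO, not called. LRRC56, which starts 205 bases from HRAS on the opposite strand, was called higher in both (0.84 ± 0.31 and 1.11 ± 0.30), at no more than 1.54 CPM in any library. In 1-1 KO its libraries overlapped with WT, with 0.803, 0.802 and 1.54 CPM beside 0.804, 0.507 and 0.412, and the call was lost without 1-1 KO replicate 3 (0.46, edgeR adjusted p = 0.189), WT replicate 2 (0.74, edgeR adjusted p = 0.0984) or WT replicate 3 (0.67, edgeR adjusted p = 0.0965).

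ARAF (ENSG00000078061, chromosome X, 47561205 to 47571908, plus strand) was at 50.5, 50.2 and 49.1 CPM in WT, at 38.8, 38.9 and 37.0 in 1-1 KO and at 44.3, 40.5 and 44.8 in 1-2 KO. Every knockout library was below every WT library, and the knockouts did not overlap. ARAF was 1.31-fold lower in 1-1 KO (log2 fold change -0.38 ± 0.05, edgeR adjusted p = 5.59e-06) and 1.16-fold lower in 1-2 KO (-0.21 ± 0.05, edgeR adjusted p = 0.00158). The difference between the knockouts was also called, 1.13-fold higher in 1-2 KO (edgeR adjusted p = 0.00435). Beside it, TIMP1, an inhibitor of matrix metalloproteinases, changed far more, from 28.8 ± 1.9 CPM in WT to 1.02 ± 0.14 in 1-1 KO and 9.83 ± 0.88 in 1-2 KO (SD, n = 3). ZNF41, a zinc finger gene on the other side, was not called in any of the 3 comparisons.

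BRAF (ENSG00000157764, chromosome 7, 140719327 to 140924929, minus strand) was at 42.5, 44.5 and 42.8 CPM in WT, at 50.7, 51.7 and 51.5 in 1-1 KO and at 59.0, 60.0 and 58.1 in 1-2 KO. The 3 lines did not overlap, lowest in WT and highest in 1-2 KO. BRAF was 1.19-fold higher in 1-1 KO (log2 fold change 0.25 ± 0.04, edgeR adjusted p = 5.34e-05) and 1.36-fold higher in 1-2 KO (0.45 ± 0.04, edgeR adjusted p = 1.76e-07). The knockouts differed by 1.15-fold (edgeR adjusted p = 0.000237). ARAF and BRAF, which can form dimers with each other, thus moved in opposite directions in both lines. The 3′ end of BRAF shares 3464 bases with NDUFB2, a gene for a subunit of respiratory complex I on the opposite strand. NDUFB2 moved the other way, with log2 fold changes of -0.35 ± 0.04 and -0.38 ± 0.05 in 1-1 KO and in 1-2 KO, both called by edgeR. Whether the counting used the strand is not stated in the sources used here, so reads from the shared bases cannot be attributed with certainty. MRPS33, a mitochondrial ribosomal protein gene on the other side of BRAF, was called lower in 1-1 KO (-0.26 ± 0.05) and not in 1-2 KO (0.00 ± 0.05).

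MAP2K1 (ENSG00000169032, chromosome 15, 66386837 to 66491656, plus strand) was at 86.0, 86.1 and 98.4 CPM in WT, at 67.6, 67.2 and 66.6 in 1-1 KO and at 64.7, 61.0 and 61.7 in 1-2 KO. All knockout libraries were below all WT libraries, and WT replicate 3 was above the other 2. MAP2K1 was 1.34-fold lower in 1-1 KO (log2 fold change -0.42 ± 0.05, edgeR adjusted p = 3.59e-06) and 1.44-fold lower in 1-2 KO (-0.53 ± 0.05, edgeR adjusted p = 5.64e-07). The difference between the knockouts, -0.10 ± 0.05, was not called by edgeR (adjusted p = 0.0817). It was called, at -0.13, without 1-2 KO replicate 1 (edgeR adjusted p = 0.0466) and in a fit of only these 2 lines (edgeR adjusted p = 0.0117), and at -0.12 among genes with at least 10 counts in every library (edgeR adjusted p = 0.0493). MAP2K1P1, a processed pseudogene, held 97 to 173 counts per library beside at least 2431 for MAP2K1, and reads of the 2 may have been split between them.

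By the GENCODE annotation, MAP2K1 starts 90 bases from TIPIN, which encodes a replication fork protein and is transcribed in the opposite direction. TIPIN was at 58.2 ± 2.9, 32.3 ± 0.9 and 43.2 ± 2.4 CPM (SD, n = 3) in WT, in 1-1 KO and in 1-2 KO. It was called lower by edgeR in both knockouts, with log2 fold changes of -0.85 ± 0.05 and -0.43 ± 0.05. SNAPC5, a subunit of the complex that activates small nuclear RNA promoters, overlaps the 3′ end of MAP2K1 by 1522 bases on the opposite strand and was also called lower in both (-0.51 ± 0.05 and -0.57 ± 0.05). All 3 genes of this cluster were therefore lower in both knockouts than in WT. As for BRAF and NDUFB2, reads from the bases shared by MAP2K1 and SNAPC5 cannot be attributed with certainty. The changes of MAP2K1 and SNAPC5 may therefore not be independent. The stretch between TIPIN and MAP2K1 (chr15:66386747-66386836, GRCh38.p14, plus strand, RefSeq) is shown because both genes start at its ends, with matches to GGGCGG and to CCAAT, the latter on the other strand, in capitals.
MAP2K1 and TIPIN stretch: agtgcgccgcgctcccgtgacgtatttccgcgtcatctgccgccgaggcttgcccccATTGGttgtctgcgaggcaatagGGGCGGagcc

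MAP2K2 (ENSG00000126934, chromosome 19, 4090321 to 4124122, minus strand) was at 44.1, 44.6 and 52.5 CPM in WT, at 62.6, 60.7 and 61.8 in 1-1 KO and at 58.2, 49.1 and 54.0 in 1-2 KO. The 1-1 KO libraries were above all others, while 1-2 KO replicate 2 lay below WT replicate 3. MAP2K2 was 1.31-fold higher in 1-1 KO (log2 fold change 0.39 ± 0.07, edgeR adjusted p = 0.000152). In 1-2 KO it was 1.14-fold higher (0.19 ± 0.07, edgeR adjusted p = 0.026). This call was lost without WT replicate 1, WT replicate 2, 1-2 KO replicate 1 or 1-2 KO replicate 3, with edgeR adjusted p-values of 0.113, 0.114, 0.101 and 0.0555. Between the knockouts it was 1.15-fold lower in 1-2 KO (edgeR adjusted p = 0.0174), a call lost without 1-1 KO replicate 1 (0.0537) or 1-2 KO replicate 2 (0.0947). Neither ZBTB7A, a transcriptional repressor gene, nor CREB3L3, a liver transcription factor gene, was called in 1-1 KO (0.13 ± 0.10 and 0.07 ± 0.08). In 1-2 KO only CREB3L3 of these neighbours was called (-0.20 ± 0.08, edgeR adjusted p = 0.043). That call was lost without WT replicate 1 or 3 or 1-2 KO replicate 2 or 3 (edgeR adjusted p = 0.116, 0.0789, 0.172 and 0.107), and ZBTB7A was called without 1-2 KO replicate 1 (-0.32, edgeR adjusted p = 0.00598).

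MAPK3 (ENSG00000102882, chromosome 16, 30114105 to 30123506, minus strand) was at 20.2, 21.3 and 21.0 CPM in WT, at 22.6, 22.5 and 19.8 in 1-1 KO and at 21.4, 20.8 and 23.7 in 1-2 KO. The lines overlapped in each comparison. The log2 fold changes were 0.06 ± 0.07, 0.08 ± 0.07 and 0.02 ± 0.07, with edgeR adjusted p-values of 0.471, 0.346 and 0.803. GDPD3, a lysophospholipase D gene 567 bases away on the same strand, fell in both knockouts by 1.01 and 1.90 on the log2 scale, both called by edgeR. Its levels were low, at 1.75 ± 0.11, 0.87 ± 0.05 and 0.47 ± 0.08 CPM (SD, n = 3) in WT, in 1-1 KO and in 1-2 KO. CORO1A, an actin-binding protein gene on the other side, was called higher in 1-2 KO only (0.71 ± 0.13), and it was at 1.92 CPM in 1-1 KO beside 1.91 in WT.

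Levels of different genes were set against each other only per length, as CPM per kilobase of merged exons. In WT the order was NRAS at 85.6 ± 2.4 (SD, n = 3), ARAF at 14.6 ± 0.2, MAP2K1 at 14.0 ± 1.1, MAP2K2 at 6.06 ± 0.60, MAPK3 at 5.67 ± 0.16, HRAS at 5.03 ± 0.20 and BRAF at 1.85 ± 0.04. The libraries of ARAF and MAP2K1 overlapped, as did those of MAP2K2 and MAPK3, and the other adjacent pairs in this order were apart. The same order was found in both knockouts, where ARAF and MAP2K1 were apart and MAP2K2 and MAPK3 overlapped in 1-2 KO only. NRAS stayed first in each, at 96.4 ± 0.4 in 1-1 KO and 53.3 ± 2.0 in 1-2 KO. The merged exons of BRAF span 23433 bases, and per length of the canonical transcript the WT order changed to NRAS, MAP2K1, MAP2K2, ARAF, MAPK3, HRAS and BRAF, of which MAPK3 and HRAS overlapped.

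Ratios within a library do not depend on the scaling between libraries. The ratio of HRAS to NRAS counts was lower in 1-1 KO than in WT by 0.69 on the log2 scale (-5.61 ± 0.08 against -4.92 ± 0.02, SD, n = 3) and higher in 1-2 KO by 0.54. That of BRAF to ARAF was higher by 0.63 in 1-1 KO and by 0.66 in 1-2 KO, and that of MAP2K2 to MAP2K1 by 0.82 and 0.72. In these 6 comparisons no library of a knockout overlapped with WT. The shares of the 2 MEK mRNAs thus moved the same way in both lines, towards MAP2K2. Each of the 6 had a two-sided exact permutation p of 0.1, the smallest that 3 against 3 libraries allow, so that none can reach 0.05 (0.113 after adjustment over 9 tests). Between the knockouts the ratio of BRAF to ARAF differed by 0.03 and overlapped (exact permutation p = 0.8), while that of HRAS to NRAS was 1.22 higher in 1-2 KO and that of MAP2K2 to MAP2K1 lower, at -0.10, both without overlap (exact permutation p = 0.1 each).

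**Figure D1:**
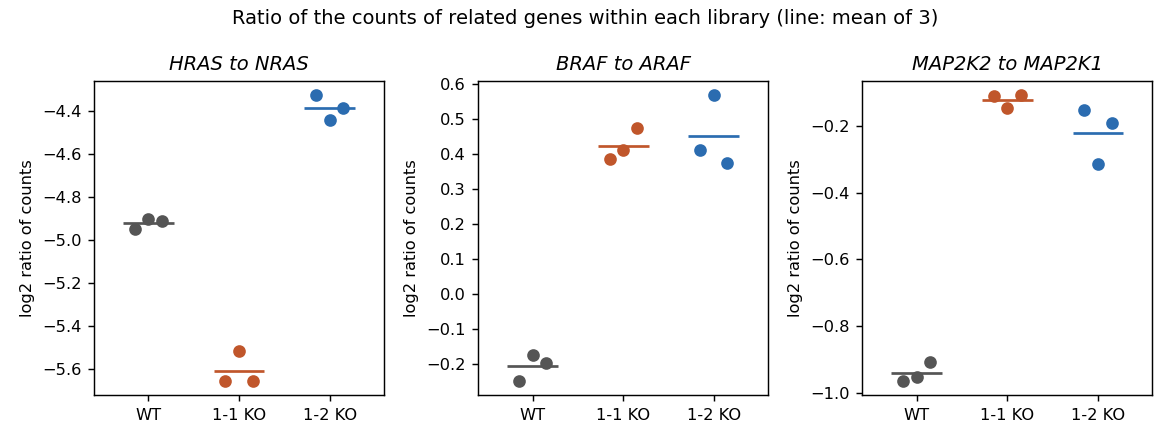
Log2 ratio of the counts of related genes within each library, for WT and both knockouts, with points for libraries and lines for the mean of 3. The axes do not start at 0. HRAS to NRAS lies on opposite sides of WT in the knockouts (lower by 0.69 in 1-1 KO and higher by 0.54 in 1-2 KO), while BRAF to ARAF and MAP2K2 to MAP2K1 lie above WT in both.

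To place each gene on its chromosome, it was compared with the 50 nearest tested genes, 25 on each side in gene order. For HRAS, close to a chromosome end, 40 were used. The medians of these neighbours ranged from -0.40 to 0.34 in 1-1 KO and from -0.26 to 0.18 in 1-2 KO, which is as far from 0 as several of the 7 genes. The neighbours' median was then entered as an offset in the edgeR test, as a fixed value. The SE and p-values relative to the neighbours thus measure the spread between libraries and leave out the scatter among the neighbours. In this test 4 genes were called in 1-1 KO, 2 higher and 2 lower, against 57.7% of all genes tested in this way. In 1-2 KO 5 were called, 1 higher and 4 lower, against 51.9%, and between the knockouts 2 were called, both lower, against 60.1%.

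**Figure D2:**
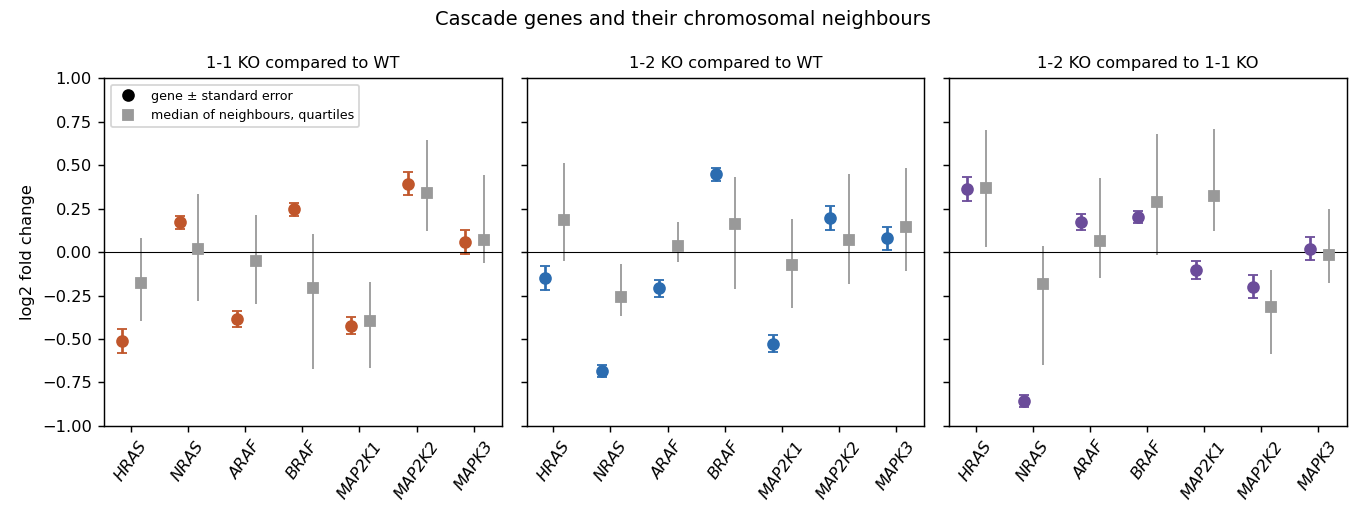
Log2 fold change of each gene (circles, with the standard error) and the median of its neighbouring genes (squares, with the quartiles) in the 3 comparisons. In 1-1 KO the circles of MAP2K1 and MAP2K2 lie on the squares (-0.42 beside -0.40 and 0.39 beside 0.34), whereas the circle of NRAS in 1-2 KO (-0.69) lies below its square (-0.26).

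For the MEK genes the change in 1-1 KO was close to that of their regions. Around MAP2K1, 37 of 50 neighbours were called lower and 3 higher in 1-1 KO, with a median of -0.40, beside -0.42 for MAP2K1. Relative to the neighbours its log2 fold change was -0.03 ± 0.05 (edgeR adjusted p = 0.642). Around MAP2K2, 32 of 50 neighbours were called higher and 4 lower, with a median of 0.34, beside 0.39 for MAP2K2 and 0.33 for the 1099 tested genes of chromosome 19, and relative to the neighbours it was at 0.06 ± 0.07 (edgeR adjusted p = 0.504). In 1-2 KO MAP2K2 was at 0.12 ± 0.07 relative to its neighbours (edgeR adjusted p = 0.142), and it was called without WT replicate 3 (0.18, edgeR adjusted p = 0.0257). The neighbours of MAP2K1 had a median of -0.08 in 1-2 KO, and MAP2K1 was lower than them by 0.45 on the log2 scale (edgeR adjusted p = 3.2e-06).

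NRAS in 1-2 KO lay below 48 of its 50 neighbours. Its region was itself lower, with a median of -0.26 and 27 neighbours called lower against 5 higher, and NRAS was -0.43 ± 0.04 relative to them (edgeR adjusted p = 2.29e-07). In 1-1 KO NRAS lay within the quartiles of its neighbours (-0.28 to 0.33), with 17 of the 50 above it. Its rise was 0.16 ± 0.04 relative to their median (edgeR adjusted p = 0.00187). That call was lost with 20 neighbours in place of 50 (0.01, edgeR adjusted p = 0.744) and without WT replicate 1 (0.10, edgeR adjusted p = 0.0502). Between the knockouts NRAS stayed at -0.67 ± 0.04 (edgeR adjusted p = 1.23e-09).

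The RAF genes kept their opposite directions. BRAF was higher in 1-1 KO although 25 of its 50 neighbours were called lower and 9 higher, and relative to them it was 0.45 ± 0.04 (edgeR adjusted p = 1.69e-07) in 1-1 KO and 0.29 ± 0.04 (edgeR adjusted p = 1.91e-05) in 1-2 KO. The call of BRAF between the knockouts was lost, at -0.08 ± 0.04 (edgeR adjusted p = 0.0652), and this value turned to 0.14 with 20 neighbours (edgeR adjusted p = 0.00443) and was called at -0.15 with 100 (edgeR adjusted p = 0.00232). It was also called without 1-1 KO replicate 2 (-0.14, edgeR adjusted p = 0.0165) or 1-2 KO replicate 1 (-0.15, edgeR adjusted p = 0.00488). ARAF was -0.33 ± 0.05 and -0.25 ± 0.05 relative to its neighbours in 1-1 KO and in 1-2 KO (edgeR adjusted p = 2.99e-05 and 0.000471). Between the knockouts ARAF was not called relative to its neighbours, but was called without 1-1 KO replicate 1 (0.16, edgeR adjusted p = 0.0318) or 1-2 KO replicate 2 (0.16, edgeR adjusted p = 0.00897).

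HRAS was the gene whose call in 1-2 KO appeared with this comparison. The neighbours had a median of -0.18 in 1-1 KO and 0.18 in 1-2 KO, and relative to them HRAS was -0.33 ± 0.07 in both (edgeR adjusted p = 0.000938 and 0.000894). Its difference between the knockouts was at -0.01 ± 0.07 relative to the neighbours (edgeR adjusted p = 0.929), and with 20 neighbours at -0.18 (edgeR adjusted p = 0.0346). MAPK3 was within 0.07 of the median of its neighbours in all 3 comparisons and was not called, except in 1-2 KO without 1-2 KO replicate 3 (-0.22, edgeR adjusted p = 0.021).

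**Figure D3:**
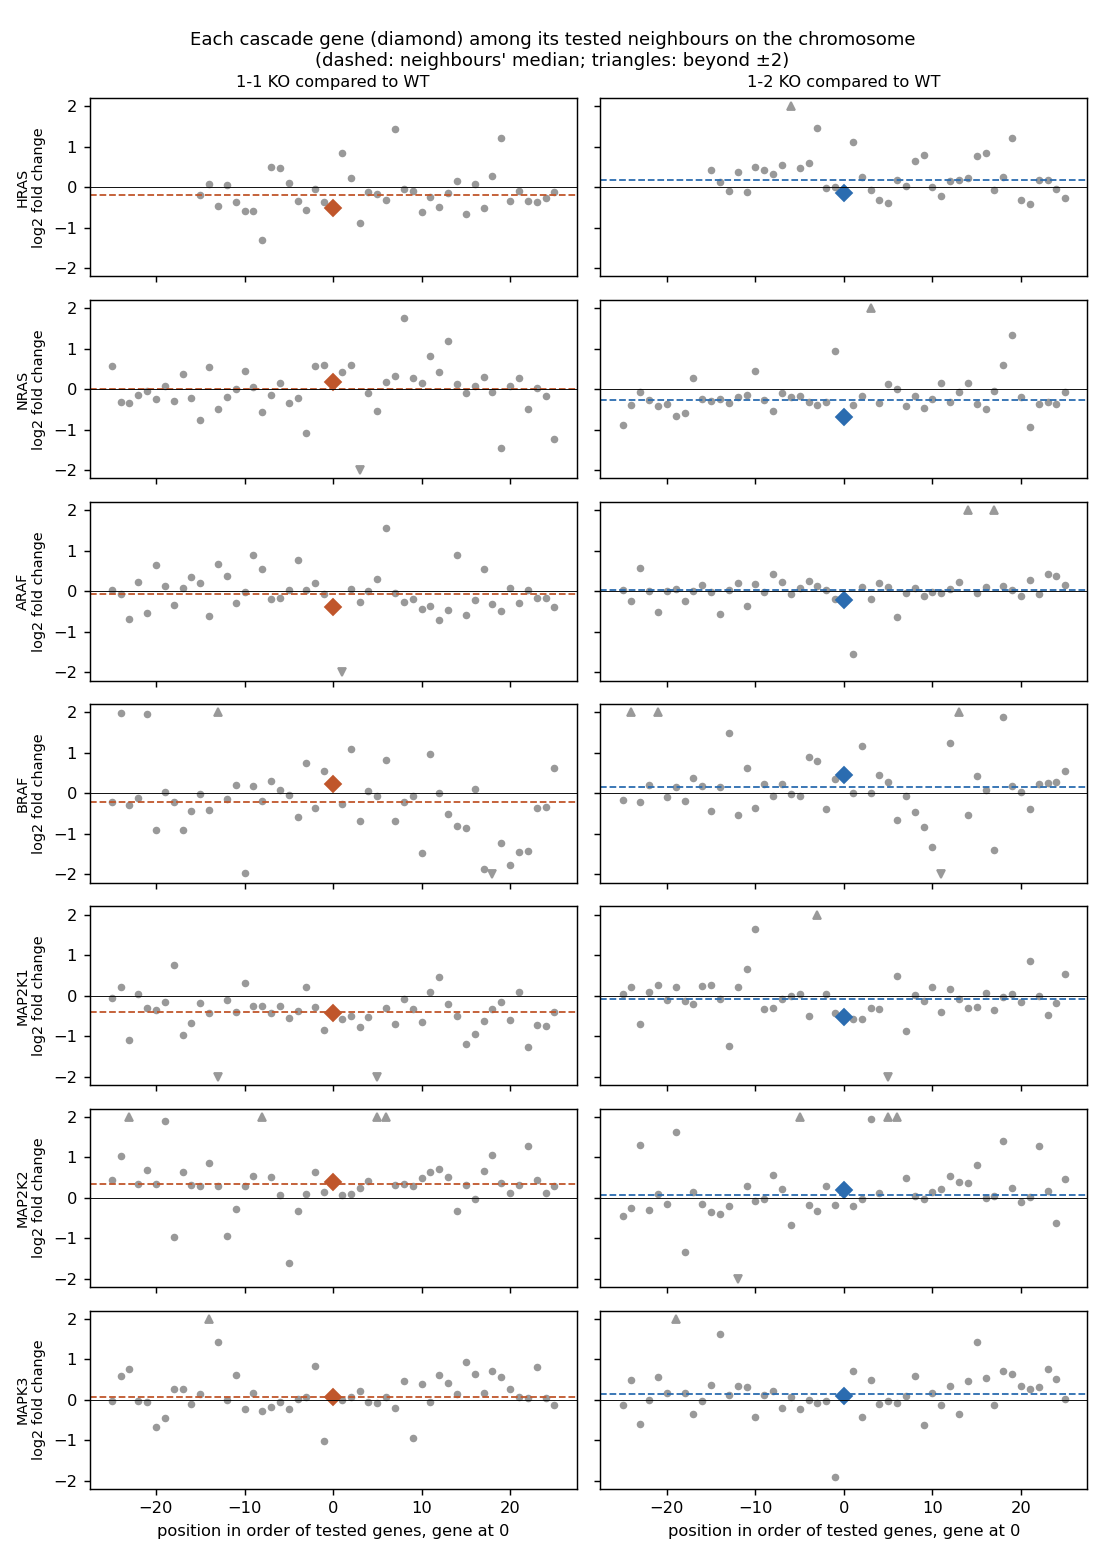
Log2 fold change of the tested genes around each cascade gene in 1-1 KO (left) and 1-2 KO (right), by their position in gene order, with the cascade gene as a diamond at 0, the median of the neighbours as a dashed line and triangles for values beyond ±2. The points around MAP2K1 are mostly below 0 in 1-1 KO (37 of 50 called lower) and those around MAP2K2 mostly above 0 (32 of 50 called higher).

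The other genes of the pathway were taken from 10 lists by role, with 125 genes in all, of which 112 were tested. In 1-1 KO 35 were higher and 49 lower, in 1-2 KO 33 higher and 37 lower, and between the knockouts 48 higher and 42 lower. These are 75%, 62.5% and 80.4% of the 112, beside 63.4%, 54.4% and 65.3% of all tested genes. Their median log2 fold changes were -0.07, -0.01 and 0.03. The lists were compared with the cascade genes by count only. Over all tested genes, 32.5% were higher and 30.9% lower in 1-1 KO, and 28.2% higher and 26.2% lower in 1-2 KO. Between the knockouts, 33.1% were higher and 32.2% lower. With 7 to 27 tested genes in each list, the counts below describe the lists and are no result about them.

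Upstream of RAS, the exchange factors had 2 higher and 5 lower of 7 tested in 1-1 KO and 3 higher and 2 lower in 1-2 KO. RASGRP1 and RASGRF1, both called higher in 1-2 KO, had at most 14 and 12 counts in a WT library. RASGRF1 had at most 4 in a 1-1 KO library. SOS1, the exchange factor recruited by growth factor receptors, was called lower in 1-1 KO (-0.35 ± 0.04, edgeR adjusted p = 3.26e-06) and had -0.05 ± 0.04 in 1-2 KO, not called except without WT replicate 3 (-0.11, edgeR adjusted p = 0.0149). RAS GTPase-activating proteins, which switch RAS off, had 3 higher and 2 lower of 7 in 1-1 KO. In 1-2 KO this list had 5 higher and 0 lower, where 28.2% of all tested genes were higher and 26.2% lower. DAB2IP rose from 33.7 ± 1.3 CPM in WT to 44.4 ± 1.6 in 1-1 KO and 57.6 ± 1.8 in 1-2 KO (SD, n = 3), and RASA3 had 0 to 2 counts in WT, 2 to 3 in 1-1 KO and 102 to 125 in 1-2 KO. The median of this list in 1-1 KO was 0.25 as fitted and -0.02 with RASA3 set to a floor of 3 counts per library. Among 10 receptor adaptors, 4 were higher and 4 lower in 1-1 KO, and 2 higher and 5 lower in 1-2 KO. In 1-1 KO GRB2, which links receptors to SOS1, was 1.47-fold higher (edgeR adjusted p = 2.91e-09) beside a median of 0.43 (log2) for its neighbours. SHC1, another adaptor, was 2.40-fold lower in 1-1 KO (log2 fold change -1.26, edgeR adjusted p = 1.69e-12) beside a median of -0.63 for its neighbours. PTPN11, the phosphatase SHP2, and GAB2 were called lower in both lines. GAB2 was lower by 0.87 and 0.88 on the log2 scale, beside medians of -0.04 and -0.09 for its neighbours. PTPN11 had log2 fold changes of -0.19 and -0.41, beside medians of -0.19 and -0.13 for its neighbours.

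Enzymes that lipidate and traffic RAS had 1 higher and 4 lower of 9 in 1-1 KO and 0 higher and 3 lower in 1-2 KO. FNTB, the beta subunit of farnesyltransferase, was 1.49-fold higher in 1-1 KO (log2 fold change 0.58, beside a median of 0.24 for its neighbours). ZDHHC9, a RAS palmitoyltransferase, was 1.38-fold lower in 1-2 KO (-0.46, beside -0.02 for its neighbours). Both were called by edgeR. Of 10 related GTPases, 4 rose and 3 fell in each knockout. RHEB, the activator of mTORC1, was 1.61-fold lower in 1-1 KO (log2 fold change -0.69, beside a median of -0.28 for its neighbours). Scaffolds and RAF regulators had 18 lower and 3 higher of 27 in 1-1 KO, where 30.9% of all tested genes were lower and 32.5% higher, with a median of -0.21, and had 10 lower and 6 higher in 1-2 KO. KSR1, a scaffold that brings RAF and MEK together, was at 30.8 ± 1.3, 18.2 ± 0.7 and 23.3 ± 0.8 CPM (SD, n = 3) in WT, in 1-1 KO and in 1-2 KO, lower in both by edgeR. PEA15, which holds ERK in the cytoplasm, was 1.82-fold lower in 1-1 KO and 1.15-fold higher in 1-2 KO. Its log2 fold changes were -0.87 and 0.20, beside medians of -0.35 and -0.02 for its neighbours.

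**Figure D4:**
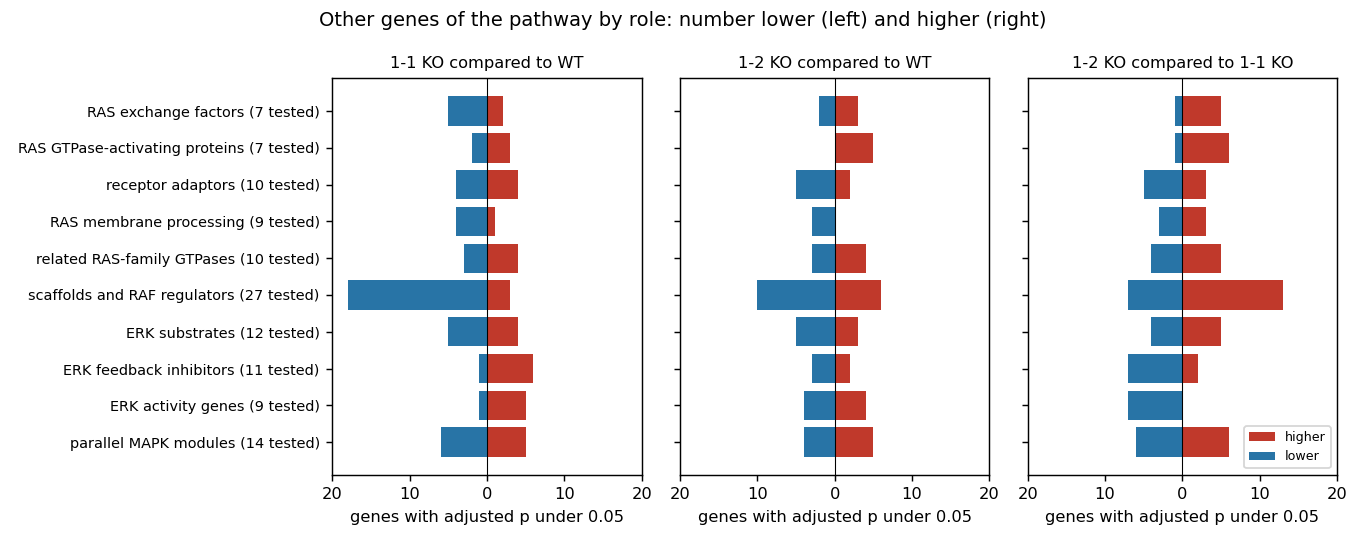
Number of genes of each role list called lower (to the left of 0) and higher (to the right of 0) by edgeR in the 3 comparisons, with the number of tested genes in the label. Scaffolds and RAF regulators have 18 lower and 3 higher in 1-1 KO, and ERK activity genes have 7 lower and 0 higher in 1-2 KO compared to 1-1 KO. Of all tested genes, 30.9% were lower and 32.5% higher in the first comparison, and 32.2% lower and 33.1% higher in the second.

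Downstream, 12 ERK substrates had 4 higher and 5 lower in 1-1 KO and 3 higher and 5 lower in 1-2 KO. ETS1, a transcription factor, had 59 to 98 counts in WT, 0 to 3 in 1-1 KO and 544 to 679 in 1-2 KO. Feedback inhibitors of ERK, which are themselves induced by the cascade, had 6 higher and 1 lower of 11 in 1-1 KO. Over all tested genes there, 32.5% were higher and 30.9% lower. In 1-2 KO 2 of these inhibitors were higher and 3 lower, beside 28.2% and 26.2% of all tested genes. DUSP5, a nuclear ERK phosphatase, rose from 62.7 ± 1.5 to 94.8 ± 0.2 CPM in 1-1 KO and fell to 40.5 ± 2.0 in 1-2 KO (SD, n = 3).

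The ERK activity list holds genes whose transcription is known to follow ERK activity, and the list shares SPRY2, SPRY4, DUSP4 and DUSP6 with the feedback inhibitors. Of 9 tested, 5 were higher and 1 lower in 1-1 KO, 4 higher and 4 lower in 1-2 KO, and 0 higher and 7 lower in 1-2 KO compared to 1-1 KO, where 32.2% of all tested genes were lower, with medians of 0.24, -0.14 and -0.58. No test of the list was run. DUSP4, a nuclear MAP kinase phosphatase, was at 57.8, 62.8 and 69.5 CPM in WT, at 129, 125 and 125 in 1-1 KO and at 51.1, 45.6 and 43.1 in 1-2 KO. DUSP6, the cytoplasmic ERK phosphatase, was at 109, 116 and 110 CPM in WT, at 113, 114 and 110 in 1-1 KO and at 63.0, 63.2 and 66.0 in 1-2 KO. The 1-1 KO libraries stood apart for DUSP4 above WT, and the 1-2 KO libraries for both genes below WT. SPRY2, a receptor signaling antagonist, was 2.00-fold higher in 1-1 KO and 1.13-fold higher in 1-2 KO, and CCND1, which encodes cyclin D1, was 1.70-fold and 1.14-fold higher. PHLDA1 and EPHA2 were lower in 1-2 KO by 0.85 and 0.61 on the log2 scale, all called by edgeR. The neighbours of PHLDA1, EPHA2 and DUSP6 had medians of -0.27, -0.22 and -0.25 in 1-2 KO. Those of DUSP4, SPRY2 and CCND1 had medians of -0.05, 0.10 and 0.09. EPHA2 was also called lower in 1-1 KO (-0.19). ETV4 and ETV5 were called higher in both, with log2 fold changes of 0.24 and 0.41 in 1-1 KO and 0.15 and 0.14 in 1-2 KO. The 1-2 KO libraries of ETV4 (64.8 to 72.4 CPM) overlapped with WT (60.2 to 66.5). Those of CCND1 (339 to 386 CPM) also overlapped with WT (300 to 342). Leaving out 1 library, 2 to 4 genes of the list were called higher in 1-2 KO and 4 to 5 lower. The call of SPRY2 in 1-2 KO was lost without WT replicate 3 or 1-2 KO replicate 2 or 3 (edgeR adjusted p = 0.0887, 0.0697 and 0.0652).

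The list of parallel MAPK modules holds genes that carry stress signals to JNK, p38 and ERK5, and also MAPK4, MAPK6 and MAPK15, which are outside these modules. Of its genes, 14 were tested. MAPK6 was called lower by edgeR in both knockouts and MAPK4 higher in both, with at most 4 counts of MAPK4 in a WT library. In 1-1 KO 5 were higher and 6 lower, and in 1-2 KO 5 higher and 4 lower. MAPK9 (JNK2) was 1.74-fold lower in 1-1 KO and 1.21-fold higher in 1-2 KO, MAPK8 (JNK1) was 1.52-fold lower in 1-2 KO beside a median of -0.51 (log2) for its neighbours, and MAPK13 (p38 delta) was 2.39-fold higher in 1-1 KO, each called by edgeR. The log2 fold changes of MAPK9 were -0.80 and 0.27, beside medians of -0.33 and 0.13 for its neighbours.

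The genes whose log2 CPM over the 9 libraries was most like that of a cascade gene were listed by Pearson's r among 8917 protein-coding genes of at least 10 CPM. The 9 points share their libraries and fall into 3 lines, so r mainly describes the order of the lines. This does not hold for MAPK3, whose lines overlapped in each comparison. Each r was also picked as one of the highest among the 8917 genes. For NRAS they were SLC38A9 (r = 0.999) and TNFRSF11B (0.998), for HRAS STEAP3 (0.989) and LYRM7 (0.988), and for BRAF CTBP2 (0.995) and OAS3 (0.993). For ARAF they were NFS1 (0.982) and KSR1 (0.980), the latter a gene of the scaffold list. For MAP2K1 they were ATP13A2 (0.988) and LAMP1 (0.987), for MAP2K2 SLC16A3 (0.986) and CHPF (0.985), and for MAPK3 ANAPC1 (0.906) and ECSIT (0.829).

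All 7 genes had an entry in the RefSeq table of promoters (GRCh38.p14, windows of 300 bases with 250 before the start), and 6 short motifs were searched on both strands. GGGCGG, the core of the GC box, was found in 5 of the 7 genes, 8 times for MAPK3, 5 for HRAS, 3 each for NRAS and MAP2K1 and 2 for MAP2K2, and in 45.0% of all 35116 windows. CCAAT was found in the windows of HRAS, ARAF, BRAF and MAP2K1 and in 34.6% of all windows. CCGGAAG, an ETS motif, was found for HRAS and NRAS (10.3% of all windows), and CACGTG, the E-box, for NRAS and MAPK3 (7.26%). TATAAA (11.5%) and TGACTCA (4.95%) had no match in these windows, nor had any of the 6 in the additional windows of MAP2K1 and MAP2K2. The RAF genes were the ones without GGGCGG. These matches are a description of the letters in these windows.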

How the data were processed

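RNA from the 3 Huh-7 lines was sequenced as stranded, paired-end mRNA libraries, 3 for each line. The authors used STAR for alignment to GRCh38 and featureCounts for counting, and deposited raw counts of each gene. The versions of both tools, the strand setting and the treatment of multi-mapping reads are not given in the sources used here. Of 60664 identifiers, 60463 were found in GENCODE 44, which gave positions and exon lengths.

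Counts were tested with edgeR 4.0.16 in R 4.3.3 (quasi-likelihood test, TMM normalization, and filterByExpr set to 10 counts and a total of 15). The model had the line as its factor over all 9 libraries, and p-values were adjusted by Benjamini-Hochberg over 17207 genes with a threshold of 0.05. The study's methods name DESeq2, which was run as an alternative (version 1.42.0). CPM used TMM-scaled library sizes. Total counts of 32384469 to 41782387 limit precision by counting error, and counts of replicate libraries varied more than Poisson counting allows (chi-square per degree of freedom 2.07 to 16.1, largest for pairs with 1-2 KO replicate 1). For the comparison with neighbours, the median log2 fold change of the 50 nearest tested genes entered the fit as an offset, in 17135 genes. Ratios were tested by exact permutation. Alternatives were other normalizations and filters, a fit of only 2 groups, a replicate block, a threshold of 0.01, 20 or 100 neighbours and leaving out each library. The length of the canonical transcript was added as an alternative after the data were seen. Both fits were tested on simulated counts.

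The genes described and the role lists were chosen with earlier results of these data known. Named besides the 7 genes were the nearest tested protein-coding gene on each side, overlapping genes, in each role list the 2 genes of lowest adjusted p in either knockout, members of the ERK activity and parallel MAPK lists, and the 2 genes most like each in level. Some genes that these rules name are not reported here.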

Additional observations from a re-analysis of the deposited data

Results flagged for a closer look

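NRAS was the gene whose effects in the 2 knockouts differed in direction. It was higher than WT in 1-1 KO (log2 fold change 0.17, 3 of 3 libraries above all WT libraries) and lower in 1-2 KO (-0.69, 3 of 3 below). The direct comparison of 1-2 KO with 1-1 KO gave -0.86 ± 0.04 SE on the log2 scale by edgeR's quasi-likelihood test (adjusted p = 8.2e-11), and over all alternatives it lay between -0.89 and -0.84.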

How the results depend on the processing

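Of 294 values of the 7 genes under the alternatives, 279 kept their direction and their side of the threshold, as did 164 of 189 values relative to the neighbours. The calls of MAP2K2 in 1-2 KO were the ones most often lost, with an adjusted p of 0.0752 in a fit of only the 2 groups at a log2 fold change of 0.18. The replicate numbers did not pair the samples (correlations of deviations from -0.21 to 0.06), and the replicate block left all 21 calls of the 7 genes as they were (6, 5 and 5 genes called, and 4, 5 and 2 relative to neighbours). No scaling moved the median of all genes by over 0.1. Leaving out 1 library in turn, 6 to 6, 4 to 5 and 4 to 6 genes were called in 1-1 KO, 1-2 KO and 1-2 KO compared to 1-1 KO. Relative to neighbours between the knockouts, 2 genes were called, and 4 with 20 neighbours, while leaving out 1 library gave 2 to 4 (4 without 1-2 KO replicate 1). The ratio of BRAF to ARAF between the knockouts ranged from -0.0306 to 0.0660 without 1 library. Per length of the canonical transcript the WT levels were 35.4 (MAP2K1), 27.2 (MAP2K2), 21.0 (ARAF), 11.6 (MAPK3), 11.4 (HRAS) and 6.70 (BRAF) CPM per kilobase, an alternative chosen after seeing the data. Of 48 values that changed sign, 1 was called, that of BRAF relative to 20 neighbours between the knockouts (0.14, adjusted p = 0.00443). The cause was not tested.

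The other values that changed sign, all log2 fold changes, were these. DUSP6 in 1-1 KO was at -0.00358 with DESeq2, -0.00353 with its size factors and -0.00778 without a filter. CORO1A in 1-1 KO was at 0.0493 with library size alone, 0.0209 with at least 10 counts in every library, 0.000196 with only the 2 groups and 0.000887 with the replicate block. In 1-2 KO, MRPS33 was at -0.00683 with DESeq2 and with its size factors, -0.0118 without a filter and -0.00859 with only the 2 groups, RNH1 at -0.0010, -0.00108, -0.00561 and -0.00307 in the same order, and SOS1 at 0.00555 with library size alone. MAPK3 between the knockouts was at -0.00191 with only the 2 groups. Relative to 20 neighbours MAPK3 was at 0.085 in 1-1 KO and 0.111 in 1-2 KO. Relative to 100 it was at 0.0177 in 1-1 KO and -0.0439 between the knockouts, where HRAS was at 0.0387.

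Leaving out 1 library, the ranges were -0.0723 to 0.0892 for CORO1A, -0.00919 to 0.0319 for DUSP6 and -0.0169 to 0.112 for ZNF41 in 1-1 KO, -0.0332 to 0.0494 for MRPS33 and -0.0264 to 0.0382 for RNH1 in 1-2 KO, and -0.0409 to 0.0589 for MAPK3 and -0.0455 to 0.022 for GAB2 between the knockouts. Relative to neighbours they were -0.0602 to 0.0212 for MAP2K1 and -0.026 to 0.0732 for MAP2K2 in 1-1 KO, -0.217 to 0.0151 for MAPK3 in 1-2 KO, and -0.0478 to 0.0393 for HRAS and -0.0689 to 0.0976 for MAPK3 between the knockouts.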
